A study of Saccharomyces cerevisiae with 24 samples.

Results

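The cytosolic 40S ribosomal protein genes of the budding yeast Saccharomyces cerevisiae were followed in mRNA, in ribosome footprints and in their ratio. Members were the genes that the deposited tables mark as cytosolic ribosomal protein genes and name RPS with a number, with or without A or B; RPS9A, RPS9B, RPS22A and RPS22B were left out. Of 52 genes so chosen, 49 carry values, out of 6304 genes with values in all; RPS6A, RPS6B and RPS8A carry none and are not analysed here. All 52 symbols matched the RefSeq annotation of the R64 assembly under the same locus. The 49 comprise 8 genes without a paralog, 20 complete A and B pairs, and RPS8B alone. By the place of their proteins in the subunit, 22 were assigned to the head, 6 to the platform and 21 to the body.

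All strains were of the CEN.PK background and carried the DIM1 allele E85Q, the allele D87E or wild-type DIM1 (WT). Dim1 is the enzyme that methylates a pair of neighbouring adenosines at the end of 18S rRNA, inside the subunit that these proteins build, and the series title asks about control of translation by sulfur through this methylation. Cells growing in sulfur-free medium with 1 mM methionine were moved to sulfur-free medium for 2 h ("without methionine", or starved). Each genotype was represented by 2 numbered strains, called isolates here: 623 and 625 for E85Q, 887 and 888 for D87E, and 172 and 600 for WT. Every isolate was sampled in both media, with matched mRNA and footprint libraries, so each of the 6 groups held 2 samples per assay.

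The 40S subunit binds mRNA and scans it for the start codon. Most of its proteins are encoded in yeast by paralog pairs that arose in the whole-genome duplication, and the paralogs of a pair encode near-identical proteins. Growing cells devote a large share of transcription to ribosomal protein genes, under the activators Rap1, Fhl1, Ifh1 and Sfp1, and the genes are known to be shut down together when nutrients run out. At the mRNA exit channel and next to the 3′ end of 18S rRNA sit Rps1, Rps14, Rps26 and Rps28, while Rps2 and Rps3 line the channel through which mRNA enters.

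Values are RPKM, reads per kilobase and 1e6 reads, as computed by the authors. Translational efficiency (TE) is the log2 footprint value minus the log2 mRNA value of the same sample, each with a pseudocount of 1. Changes are given as log2 differences with the standard error (SE) of a limma fit to 4888 genes, in which all 49 members were tested. The threshold for a call was an adjusted p of 0.05 (Benjamini-Hochberg over all 4888 genes). Reads recovered from the steps of the RPKM values numbered 24.3 to 32.3 M (1e6) per mRNA library and 21.4 to 81.4 M per footprint library. The same steps gave the number of positions that the authors' masked tables counted in each gene. It was 267 to 732 in the genes without a paralog and 10 to 318 in the paralogs, with 12 members under 50 positions. RPS4A and RPS4B rested on 10 positions each, RPS30A and RPS30B on 13. Members with few counted positions had higher TE with methionine: the median was 2.36 in the 12 members under 50 positions and 0.0561 in the 8 without a paralog. The rank correlation was -0.636 over the 49 members, which share the same libraries. TE levels of different members were therefore not compared, and results rest on changes of 1 gene between samples.

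The 49 genes lost most of their mRNA when methionine was withdrawn, in every strain, and the loss was smaller in E85Q. Their share of all mRNA RPKM was 2.64% and 3.43% in starved E85Q isolates against 13.1% and 12.9% with methionine. In D87E it was 1.35% and 0.858% against 12.6% and 12.5%. In WT it was 0.902% and 0.806% against 12.03% and 12.6%. No sample without methionine came near any sample with methionine, and both starved E85Q samples lay above all 4 other starved samples. In footprints the share was 2.68% and 3.11% in starved E85Q, 1.68% and 1.17% in starved D87E, and 1.49% and 1.11% in starved WT. Footprint shares with methionine were 12.8 to 13.1% in E85Q, 12.1% in both D87E isolates, and 11.7 and 12.2% in WT. RPKM gives shares of a library, so a lower total amount of mRNA per cell cannot be told apart from the values here.

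**Figure D1:**
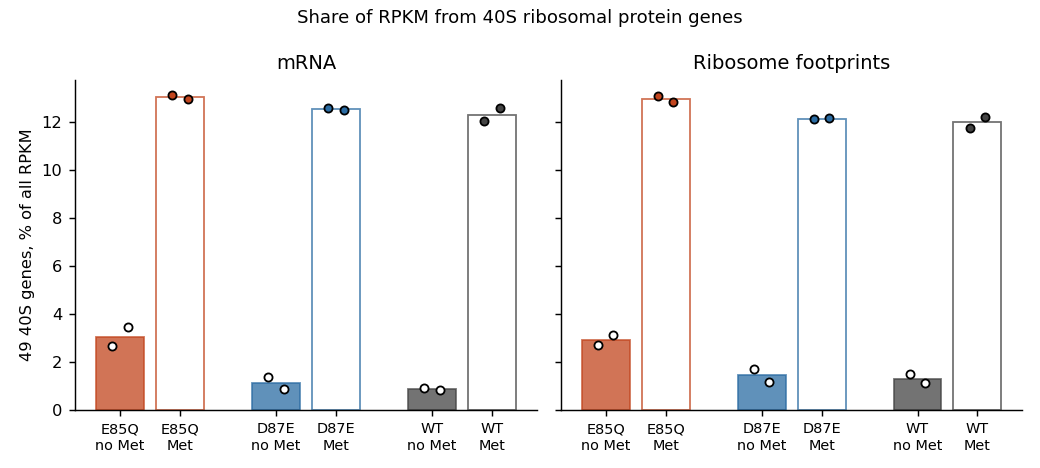
Share of all RPKM that came from the 49 40S ribosomal protein genes (%), in mRNA (left) and ribosome footprints (right), for E85Q, D87E and WT without methionine (no Met, filled bars) and with methionine (Met, open bars). Bars are means and points are the 2 isolates; without methionine E85Q lies at 2.64 to 3.43% in mRNA and WT at 0.806 to 0.902%.

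Each of the 49 members fell in mRNA in each of the 3 strains (limma, adjusted p at most 0.013). Among all tested genes, 30.3% fell in E85Q, 25.5% in D87E and 26.7% in WT. The members' median log2 change was -2.31 in E85Q, -3.83 in D87E and -4.12 in WT, against medians of 0.14, 0.41 and 0.40 over all tested genes. Head, platform and body genes had like medians, at -2.30, -2.25 and -2.31 in E85Q, -3.86, -3.55 and -3.83 in D87E, and -4.01, -3.88 and -4.22 in WT.

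Genes without a paralog, each with at least 267 counted positions, illustrate the size of the fall. RPS3, a head protein at the mRNA entry channel (chromosome XIV, 302680 to 303402, R64 assembly), had 486 and 611 RPKM of mRNA in starved E85Q isolates against 2622 and 2518 with methionine. In D87E it had 208 and 118 RPKM without against 3039 and 2991 with methionine, and in WT 121 and 103 RPKM against 2930 and 3090. These are log2 changes of -2.24 ± 0.21 in E85Q, -4.26 ± 0.21 in D87E and -4.74 ± 0.21 in WT (SE). RPS31, which encodes a ubiquitin fused to a 40S protein, had the highest mRNA level per length of the genes without a paralog that are named here. It stood at 1511 and 2090 RPKM in starved E85Q, 581 and 346 RPKM in starved D87E, and 355 and 312 RPKM in starved WT. With methionine all 6 samples of RPS31 lay between 7438 and 8326 RPKM. RPS2, RPS12, RPS13, RPS15 and RPS20 changed by -1.91 to -2.46 in E85Q, by -3.22 to -4.23 in D87E and by -3.62 to -4.67 in WT, RPS20 falling least of these in each strain.

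Single paralogs stood apart at both ends. RPS26B, 1 of 2 genes for the Rps26 protein that contacts the 3′ end of 18S rRNA (chromosome V, 423952 to 424311), fell most in D87E and WT. Its mRNA was 110 and 177 RPKM in starved E85Q, 49.9 and 28.7 RPKM in starved D87E and 26.0 and 25.9 RPKM in starved WT, against 1180 to 1342 RPKM in the 6 samples with methionine. The log2 changes were -3.22 ± 0.24 in E85Q, -5.02 ± 0.24 in D87E and -5.46 ± 0.24 in WT. In E85Q RPS24B fell most (-3.30), over 31 counted positions. Next in WT came RPS16B, which encodes a head protein, at -5.18 ± 0.28.

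RPS27A (chromosome XI, 158613 to 159212), which encodes a zinc-finger protein of the body, fell by less and by about the same in every strain. Its mRNA was 219 RPKM in both starved E85Q isolates against 884 and 906 RPKM with methionine. D87E had 213 and 165 RPKM without against 771 and 750.3 RPKM with methionine, and WT had 189.5 and 180 RPKM against 735 and 734 RPKM. The changes were -2.03 ± 0.10 in E85Q, -2.02 ± 0.10 in D87E and -1.99 ± 0.10 in WT. RPS30A had the smallest fall in each strain, -1.08 ± 0.33 in E85Q, -1.46 ± 0.33 in D87E and -1.95 ± 0.33 in WT, measured over 13 positions only.

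Footprints of all 49 members fell as well in every strain, with medians of -2.41 in E85Q, -3.59 in D87E and -3.65 in WT. Of all tested genes 30.6% fell in E85Q, 35% in D87E and 32.1% in WT. RPS2, whose protein lies at the mRNA entry channel (chromosome VII, 277617 to 278381), fell most in D87E and WT. It had 659 and 713 RPKM of footprints in starved E85Q against 2934 and 2726 RPKM with methionine. D87E had 158 and 87.6 RPKM against 3539 and 3499 RPKM, and WT had 193 and 102 RPKM against 3385 and 3595 RPKM. The changes were -2.04 ± 0.29 in E85Q, -4.89 ± 0.29 in D87E and -4.63 ± 0.29 in WT. In E85Q the largest fall in footprints was that of RPS24B (-3.64). At the other end, RPS27A footprints stood at 387 and 312 RPKM in starved E85Q, 555 and 538 RPKM in starved D87E, and 640 and 610 RPKM in starved WT. With methionine RPS27A had 1015 to 1336 RPKM in all 6 samples. Starved D87E and WT thus kept more RPS27A footprints than starved E85Q, the reverse of the order of most members.

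The starved isolates of WT and D87E differed in footprints, and those of E85Q and D87E in mRNA. In footprints, 47 of the 49 members were higher in WT isolate 172 than in 600, by a median log2 difference of 0.59, and 47 were higher in D87E isolate 887 than in 888, by 0.66. The mRNA of 48 members was higher in 887 than in 888, by 0.77, whereas between 172 and 600 the difference was 0.18. In E85Q 5 members had more mRNA in 623 than in 625, with a median difference of -0.37. With methionine these 5 medians lay between -0.08 and 0.02. E85Q footprints differed by -0.10 when starved and by 0.16 with methionine.

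**Figure D2:**
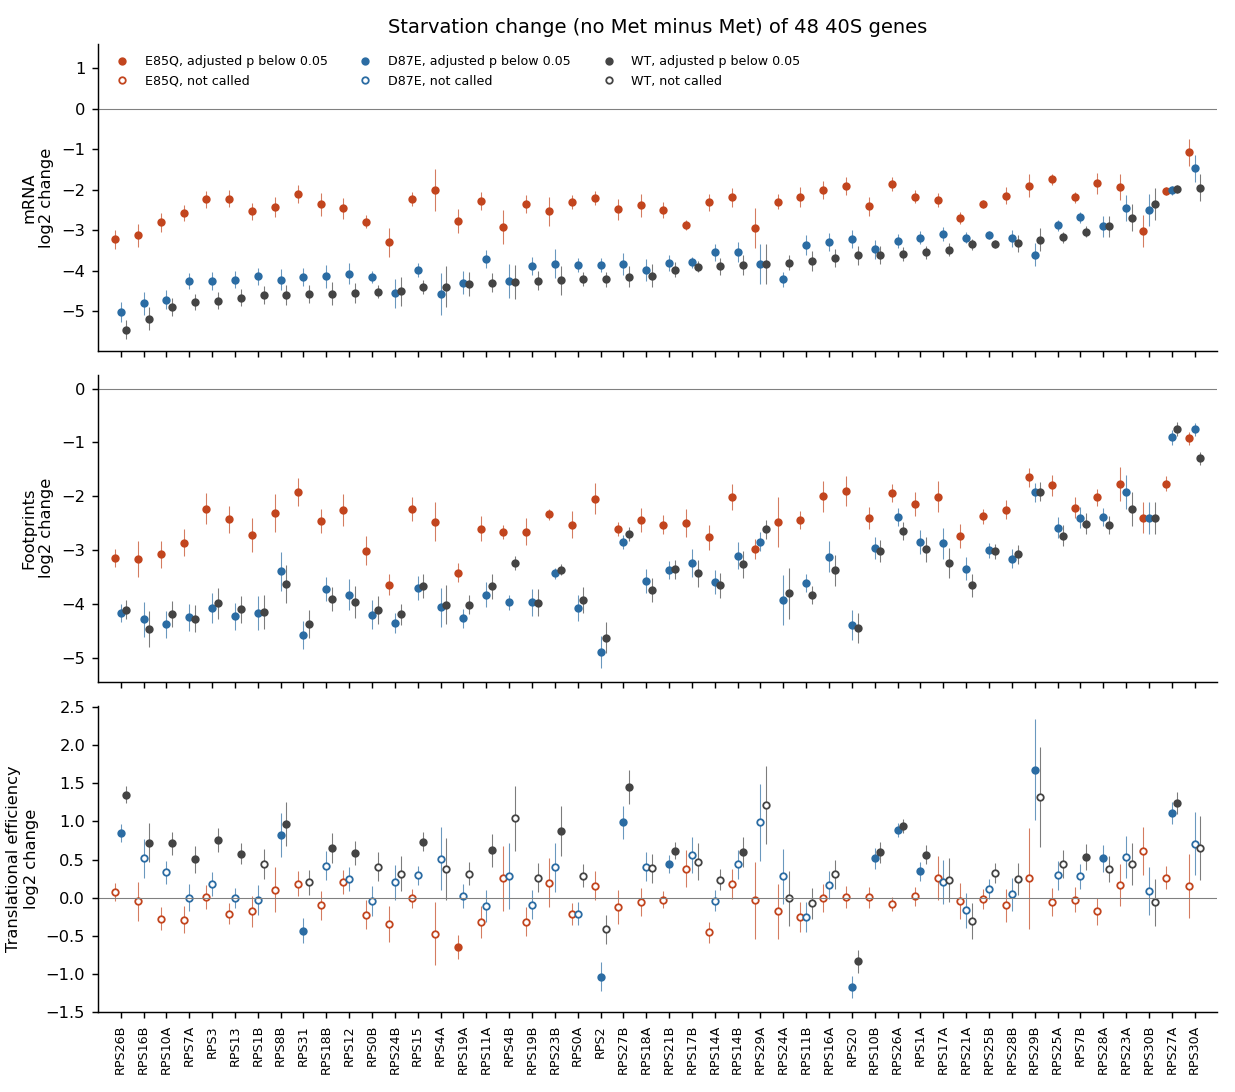
Log2 change without minus with methionine of the 49 40S genes in mRNA (top), footprints (middle) and translational efficiency (bottom), with 1 member not drawn, for E85Q, D87E and WT, in order of the WT mRNA change. Bars are SE of the limma fit and filled points passed the adjusted p of 0.05; every mRNA and footprint point is below 0, and WT mRNA changes run from -5.46 to -1.95.

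Most members had no called change in TE, and those called differed between the strains. In E85Q no member gained and RPS19A alone lost TE (-0.65 ± 0.15); across all genes 1.92% gained and 4.28% lost. In D87E 10 members gained and 3 lost, against 13.1% and 47.9% of all genes. In WT 21 gained and 1 lost, against 16.7% and 36.6% of all genes. Among the 68 60S genes 0 gained and 1 lost in E85Q. In D87E 15 of these gained and 5 lost, and in WT 39 gained and 1 lost. The members' median changes were -0.03 in E85Q, 0.28 in D87E and 0.50 in WT, and those of all genes -0.00366, -0.23 and -0.12. The WT and D87E counts are not firm. Here and below, counts of members under other settings are given without the share of all genes under the same setting. With footprints of starved libraries reduced by the largest carry-over from the same isolate's library with methionine that leaves no gene below 0 among those of at least 100 RPKM with methionine, 6 members lost in E85Q, 9 gained and 6 lost in D87E, and 4 gained and 9 lost in WT. That upper bound was 4.02% of the level with methionine in WT isolate 172 and 0.902 to 2.25% in the other 5, while the median member kept 6.12 to 19.9% of its footprints. With the isolate as a replicate block, 2 lost in E85Q, 16 gained and 3 lost in D87E, and 28 gained and 1 lost in WT. The call on RPS19A was lost without E85Q isolate 625 starved or 623 with methionine, and in D87E 6 gained and 2 lost without isolate 887, or without isolate 888, with methionine. In WT 13 gained and 3 lost without isolate 172 starved, and 31 gained and 1 lost without 600 starved. The starved isolates of WT also differed: the median member TE was 1.46 in 172 and 0.857 in 600, against 0.601 and 0.622 with methionine.

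RPS26A, RPS26B, RPS27A and RPS27B gained TE in D87E and WT. They were not alone: RPS8B (0.82 in D87E and 0.96 in WT), RPS10B (0.51 and 0.60), RPS21B (0.44 and 0.62) and RPS1A, given below, were also called in both. The largest gain in D87E was that of RPS29B (1.68 ± 0.66), over 45 counted positions, which was not called in WT (adjusted p = 0.114). RPS27A had a TE of 0.821 and 0.512 in starved E85Q, 1.38 and 1.70 in starved D87E, and 1.75 in both starved WT isolates. With methionine its 6 values ran from 0.208 to 0.595. Starved D87E and WT samples lay above all others, and the changes were 0.26 ± 0.15 (adjusted p = 0.322) in E85Q, 1.11 ± 0.15 in D87E and 1.24 ± 0.15 in WT. RPS27B changed by -0.12 ± 0.22 in E85Q (adjusted p = 0.797), 0.99 ± 0.22 in D87E and 1.45 ± 0.22 in WT. Its mRNA, which enters TE with a minus sign, fell more than that of RPS27A. RPS26B had a TE of 0.454 and 0.130 in starved E85Q, 0.894 and 1.104 in starved D87E, and 1.65 and 1.48 in starved WT. With methionine RPS26B ran from 0.120 to 0.249. Its paralog RPS26A changed by 0.89 ± 0.09 in D87E and 0.94 ± 0.09 in WT. After subtraction of the bound on carry-over, the WT change of RPS26B was 0.39 with an adjusted p of 0.131, and the WT calls of RPS26A, RPS27A and RPS27B held.

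RPS20, a head protein that neighbours Rps3 (chromosome VIII, 75412 to 75777), lost TE in D87E and WT. Its TE was 0.586 and 0.361 in starved E85Q, -0.514 and -0.418 in starved D87E, and 0.114 and -0.418 in starved WT. With methionine the values were 0.531 and 0.399 in E85Q, 0.759 and 0.655 in D87E, and 0.700 and 0.663 in WT. The starved E85Q values overlapped those with methionine, whereas starved D87E and WT values lay below all of them. The changes were 0.01 ± 0.15 in E85Q (adjusted p = 0.981), -1.17 ± 0.15 in D87E and -0.83 ± 0.15 in WT. RPS2 lost TE in D87E (-1.03 ± 0.19), with -0.919 and -1.16 in starved cells against 0.00590 and -0.0158 with methionine. In WT its starved isolates differed widely, at -0.0733 and -0.835 against -0.0390 and -0.0443, and the change of -0.41 ± 0.19 was not called (adjusted p = 0.09). RPS31 lost TE in D87E (-0.43 ± 0.17) and not in E85Q or WT (0.18 and 0.20, adjusted p = 0.564 and 0.322); in WT it fell by 0.85 after the subtraction of carry-over.

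Also without a paralog, RPS3, RPS12, RPS13 and RPS15 gained 0.58 to 0.75 in WT, all called as deposited. After subtraction of the bound they lay between -0.24 and 0.17 with none called. In E85Q they lay between -0.21 and 0.21 and in D87E between -0.002 and 0.29, with no call. At the exit channel, RPS1A gained TE in D87E and WT (0.35 ± 0.12 and 0.56 ± 0.12), RPS14B in WT (0.59 ± 0.20) and RPS28A in D87E (0.52 ± 0.17). After subtraction of the bound on carry-over, RPS1A stood at 0.25 in D87E and 0.24 in WT and RPS14B at 0.17 in WT, none of them called (adjusted p = 0.0708, 0.0793 and 0.402), while the call on RPS28A held. RPS1B, RPS14A and RPS28B had changes of -0.45 to 0.44 that were not called in any strain.

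**Figure D3:**
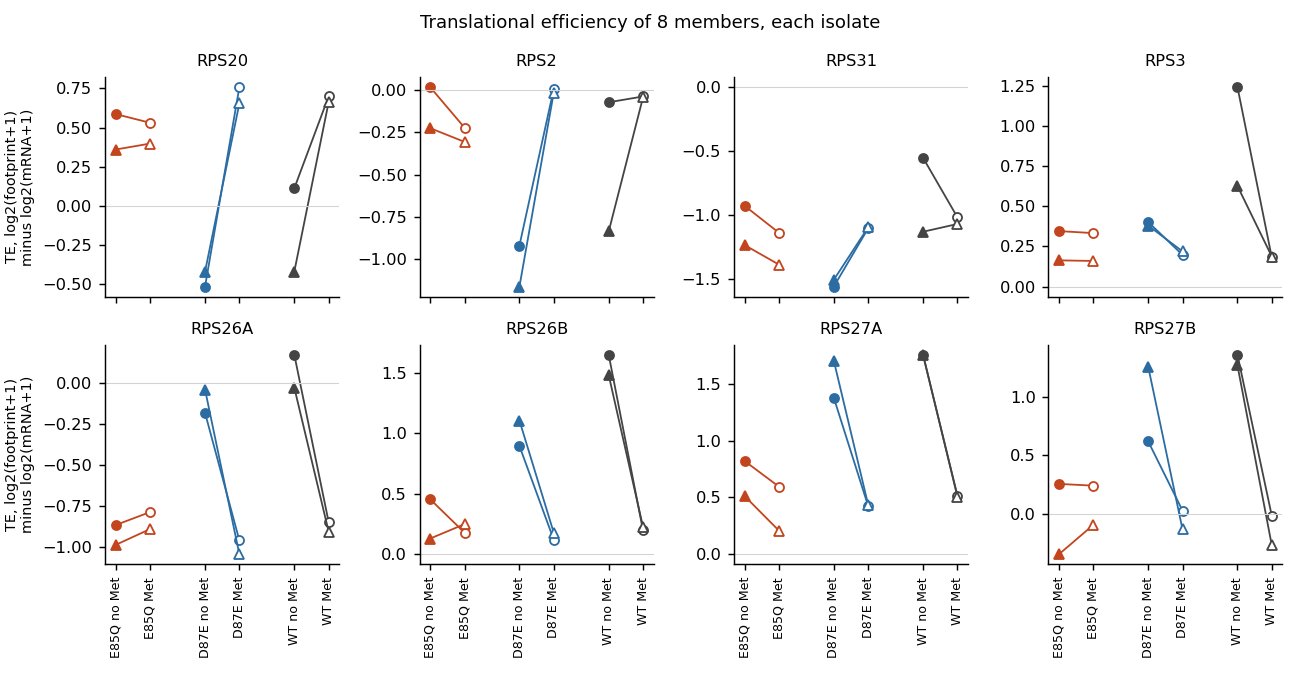
Translational efficiency (log2 footprint minus log2 mRNA, pseudocount 1) of 8 members in E85Q, D87E and WT without (no Met, filled) and with methionine (Met, open); lines join the 2 samples of an isolate, and circles and triangles are the 2 isolates of a genotype. RPS20 and RPS2 drop in starved D87E, RPS26A, RPS26B, RPS27A and RPS27B go up in starved D87E and WT, and E85Q changes little, for RPS20 by 0.01.

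With methionine the E85Q allele left the 40S genes near their WT levels. The median log2 difference in mRNA, E85Q minus WT, was 0.115 in the members and 0.112 over all tested genes. Differences of single members in mRNA ran from -0.33 to 0.78, the highest not called. In footprints the medians were 0.17 in the members and 0.05 over all tested genes. The median SE in mRNA was larger in the members (0.225 against 0.0789), so the counts of calls were not made at like precision. In mRNA 2 members, RPS17A (0.54 ± 0.17) and RPS17B (0.49 ± 0.13), were higher in E85Q than in WT, both over 39 counted positions, against 22.4% of all tested genes. RPS17A had 2166 and 1467 RPKM in E85Q against 1265 and 1191 RPKM in WT, and RPS17B 1781 and 1343 RPKM against 1160 and 1043 RPKM. The groups did not overlap for either gene, but the call on RPS17A was lost when libraries were centred on the median gene or without a filter on low values, and that on RPS17B with centring. Both were lost without E85Q isolate 623 with methionine and without WT isolate 600 with methionine. No member was called in footprints or TE (limma), where 7.61% and 0.143% of all genes were called in either direction; 0 members had an unadjusted p under 0.05 in either.

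Without methionine the mRNA of 46 members was higher in E85Q than in WT, with a median difference of 1.75, against 15.7% of all tested genes; the median of all genes was -0.17. Of the 68 60S genes 64 were higher, with a median of 1.70. Among the members RPS31 (2.41 ± 0.22), RPS26B (2.38 ± 0.24) and RPS7A (2.38 ± 0.20) differed most. RPS27A (0.24 ± 0.10), RPS29A (1.20 ± 0.50) and RPS30B (0.12 ± 0.40) were not called, at adjusted p of 0.067, 0.057 and 0.81. Footprints of 42 members were higher and those of 1, RPS27A, lower (-0.84 ± 0.13), against 20.6% and 32.5% of all genes. The largest differences in footprints were those of RPS20 (2.29 ± 0.28), RPS2 (2.28 ± 0.29) and RPS31 (2.17 ± 0.26).

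RPS20 footprints, for example, numbered 848 and 907 RPKM in starved E85Q against 245 and 130 RPKM in starved WT. In TE 23 members were lower and RPS20 was higher (0.63 ± 0.15), against 12% and 24% of all genes. Among called members RPS27B (-1.35 ± 0.22), RPS26B (-1.27 ± 0.12) and RPS27A (-1.09 ± 0.15) were lowest. After subtraction of the bound on carry-over 11 members were lower and 3 higher. Without E85Q isolate 625 starved 10 were lower and 1 higher, and without WT isolate 172 starved 12 were lower and 2 higher.

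The starvation responses themselves differed between E85Q and WT. The difference of responses, E85Q minus WT, was positive and called for 42 members in mRNA (median 1.67), against 11.8% of all genes. It was positive and called for 62 of the 68 60S genes as well (median 1.58). Among the members RPS3, RPS31 and RPS13 led, at 2.51 ± 0.30, 2.46 ± 0.32 and 2.45 ± 0.30. For RPS27A it was -0.04 ± 0.15 (adjusted p = 0.816). In footprints 32 members were higher and RPS27A was lower, against 13.8% and 27.7% of all genes, with 2.59 ± 0.42 for RPS2, 2.55 ± 0.39 for RPS20, 2.44 ± 0.37 for RPS31 and -1.02 ± 0.19 for RPS27A. This count was 16 to 19 without any 1 of 5 samples (WT 600 in either medium, WT 172 with methionine, E85Q 625 in either medium). In TE 15 members were lower and RPS20 higher (0.84 ± 0.21), against 4.44% and 17.4% of all genes, with RPS27B at -1.57 ± 0.31, RPS26B at -1.27 ± 0.16 and RPS26A at -1.03 ± 0.13. Without single samples the TE count ranged from 5 (WT 600 with methionine) to 27 (WT 600 starved). It was 6 without E85Q 625 starved and 7 without E85Q 623 with methionine. After subtraction of the bound on carry-over, 5 members were lower and 3 higher in TE.

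**Figure D4:**
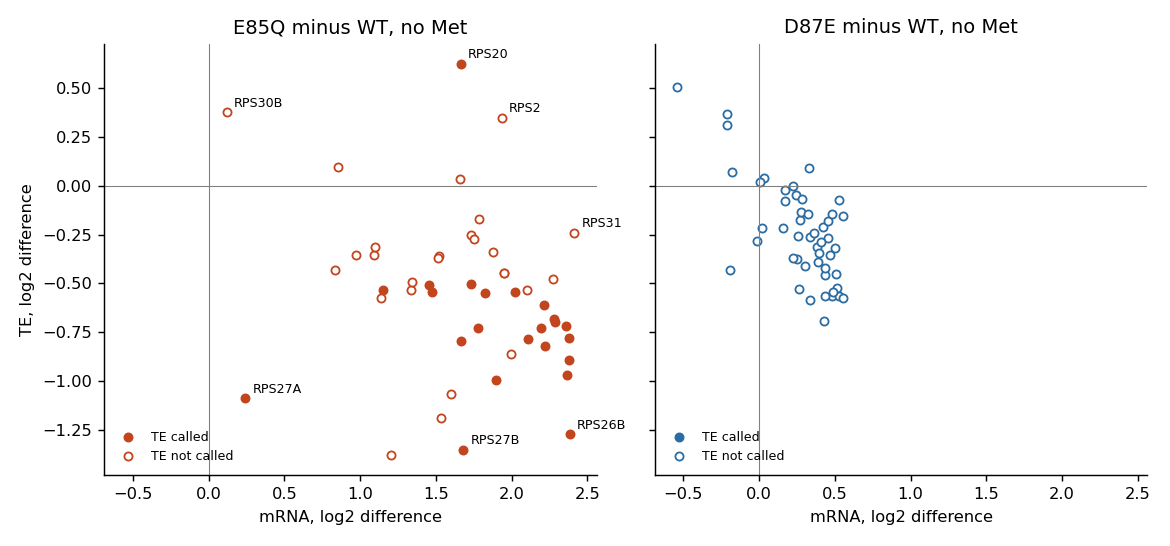
Log2 difference from WT without methionine in mRNA (horizontal) and translational efficiency (vertical) for the 49 members, in E85Q (left) and D87E (right). Filled points were called in TE; the mRNA value enters both axes. In E85Q 23 called points lie below 0 and RPS20 lies above, at 0.63, and in D87E no point is called.

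D87E and WT were not told apart for any member. In mRNA 0 of 49 were called with methionine, without methionine or in the difference of responses, and 0% of all genes were. Members with an unadjusted p under 0.05 numbered 0, 10 and 0 in mRNA, 0, 2 and 2 in footprints, and 0, 14 and 9 in TE. Over all 4888 genes the numbers were 207, 402 and 231 in mRNA, 160, 778 and 574 in footprints, and 197, 633 and 521 in TE. Footprints and TE also gave 0 member calls (limma) against 0.0614% and 0.143% of all genes with methionine, 0% and 0.0205% without, and 0% and 0% in the difference of responses. The median difference from WT in starved mRNA was 0.33, and the starved D87E isolates differed from each other. Their mRNA was higher in 887 than in 888 by a median of 0.77 over the members, against 0.00447 over all tested genes. In TE the starved WT isolates differed, 172 minus 600, by a median of 0.47 over the members and -0.02 over all tested genes. Member counts changed when single samples were left out, as given at the end. Both mutants were compared with the same WT samples, so their values are given side by side only.

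The balance between paralogs changed in one direction in every isolate for some pairs and not for others. The A share, the RPKM of the A gene over that of both genes, does not depend on the scaling of a library. It changed in the same direction in all 6 isolates for 13 of 20 pairs in mRNA (10 higher and 3 lower) and for 13 of 20 in footprints (9 higher and 4 lower). Among all 49 A and B pairs of cytosolic ribosomal proteins, 60S pairs included, 51% did so in mRNA and 51% in footprints. Of the 20 pairs, 10 moved in the same direction in both assays in all isolates and 0 in opposite directions. Each such pair has an exact two-sided p of 0.0312 (sign flips over 6 isolates), the smallest that 6 isolates allow; 40 tests were made, and these p-values are not adjusted. Nothing in the labels says that the isolates of a genotype are independent, so p-values measure the spread between these samples.

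RPS16, a head protein whose tail reaches the P-site tRNA, changed most in mRNA in percentage points. By the log2 ratio of A to B, RPS26 (1.67) and RPS27 (1.48) changed more in mRNA than RPS16 (1.38). RPS16A made up 55.4 ± 3.63% without methionine against 32.3 ± 1.51% with methionine (SD, n = 6, exact p = 0.0312). Every starved sample lay at 48.8 to 58.9% and every sample with methionine at 29.7 to 33.8%. In footprints the share was 71.0 ± 1.59% against 52.5 ± 0.745%. The mean change by genotype was 18.7 points in E85Q, 25.5 in D87E and 25.2 in WT in mRNA, where both E85Q isolates (20.5 and 16.9) lay below the 4 others. In footprints it was 18.95 points in E85Q, 18.8 in D87E and 17.8 in WT.

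RPS27, RPS7, RPS1 and RPS10 changed in one direction in every isolate, with smaller values in both E85Q isolates. RPS27A made up 27.3 and 19.3% of RPS27 mRNA in starved E85Q, 37.1 and 44.9% in starved D87E, and 43.9 and 45.9% in starved WT, against 13.9 to 18.3% in the 6 samples with methionine. RPS7A, whose paralog RPS7B encodes the other form of a body protein, went the opposite way. It made up 77.0 and 75.5% of RPS7 mRNA in starved E85Q, 58.2 and 51.2% in starved D87E, and 52.3 and 52.2% in starved WT, against 78.2 to 81.9% with methionine. The change in RPS7 was -4.91 and -3.89 points in E85Q, -20.1 and -27.0 in D87E, and -26.2 in both WT isolates. For RPS1, a platform protein, the mRNA changes were 5.27 and 6.94 points in E85Q, 13.3 and 19.3 in D87E and 18.9 and 17.3 in WT. RPS10 changed by -6.08 and -7.02 points in E85Q, -21.9 and -20.4 in D87E, and -17.2 and -26.8 in WT. Over all 20 pairs, both E85Q isolates lay nearer 0 than the 4 others for 9 in mRNA (these 4, RPS14, RPS16, RPS21, RPS23 and RPS26) and 8 in footprints. They lay farthest from 0 for 2 in mRNA (RPS0 and RPS25) and 3 in footprints (RPS0, RPS19 and RPS29). With 2 isolates a genotype that difference was not tested, and RPS1 and RPS10 were picked after their values were seen. RPS23A also rose, to 41.96 ± 8.26% of RPS23 mRNA without methionine against 24.2 ± 2.33% with methionine (exact p = 0.0312), over 29 counted positions a gene.

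RPS26A rose to 93.7 ± 1.36% of RPS26 mRNA without methionine, against 82.3 ± 0.289% with methionine, and to 86.0 ± 2.20% of footprints against 68.6 ± 1.11%. The pairs with the smallest mean change in mRNA were RPS14 (-0.125 ± 1.73 points, exact p = 0.844) and RPS4 (2.598 ± 20.3 points, exact p = 0.781), the second over 10 positions a gene. In footprints RPS14A fell in all 6 isolates, by a mean of 4.36 points.

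**Figure D5:**
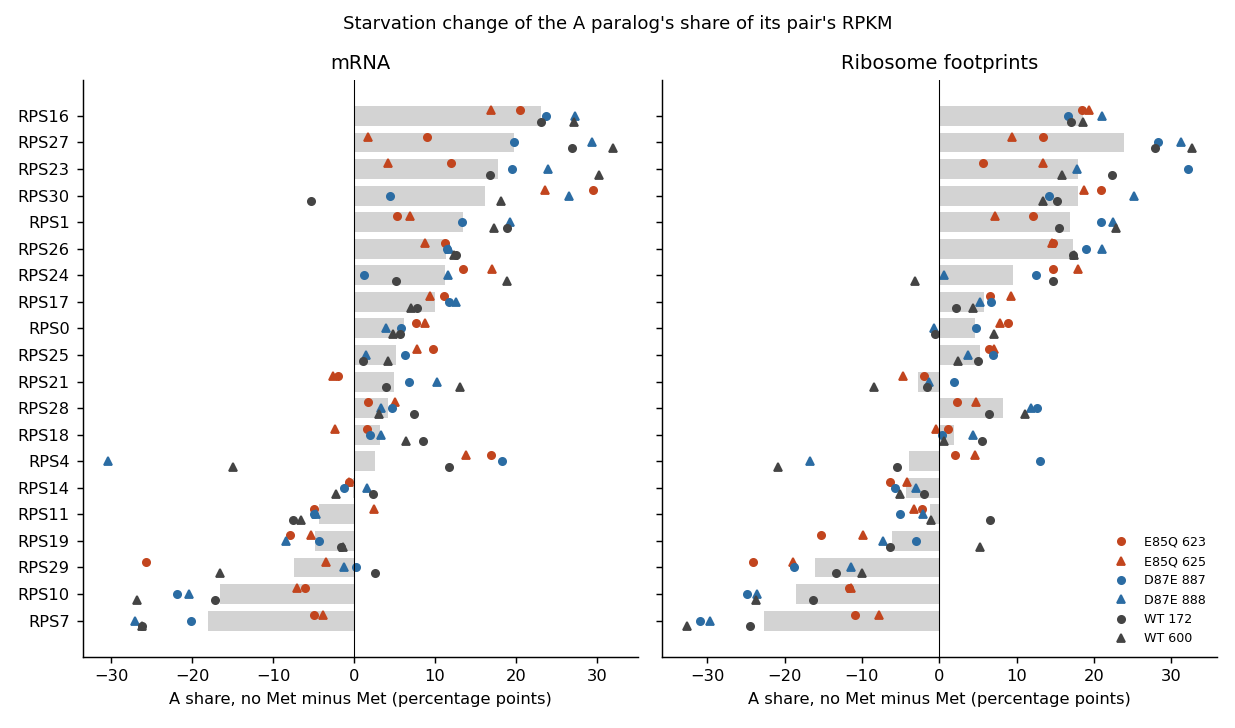
Change of the A gene's share of its pair's RPKM, without minus with methionine, in percentage points, for 20 pairs in mRNA (left) and footprints (right). Grey bars are means over 6 isolates and symbols are the isolates of E85Q, D87E and WT; RPS16 has the largest mean change in mRNA, 23.1 points, and RPS7 the lowest, -18.0 points.

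Within the cytosolic ribosomal protein genes, the 40S members made up 42.1 ± 1.27% of footprint RPKM without methionine against 38.05 ± 0.236% with methionine (SD, n = 6), higher in 6 of 6 isolates by a mean of 4.05 points (exact p = 0.0312, the smallest possible). RPS30A, over 13 counted positions, weighed more in this sum without methionine. In WT isolates 172 and 600 it held 1282 and 1287 of 13183 and 9549 RPKM when starved. With methionine it held 3107 and 3201 of 1.0416e+05 and 1.1031e+05 RPKM. Part of the 4.05 points thus came from this 1 gene, and the share without RPS30A was not computed. In footprints the median log2 value of the 40S genes minus that of the 60S genes was also higher without methionine in all 6 isolates. The mean change was 0.28 ± 0.06 (SD, exact p = 0.0312). In mRNA the share of the 40S members was 40 ± 1.62% against 40.5 ± 0.143% (exact p = 0.469). It was higher without methionine in both E85Q isolates (1.62 and 1.45 points) and lower in both D87E (-1.74 and -1.15) and both WT isolates (-1.77 and -1.35). The median log2 value of the 40S genes minus that of the 60S genes was higher without methionine in all 6 isolates in mRNA, by 0.24 ± 0.12 (SD, exact p = 0.0312), so the sum and the median differ in sign.

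Genes that act with the 40S proteins were taken from a list of 13, and their changes are those of mRNA unless TE is named. ASC1, which encodes a WD-repeat protein on the head of the subunit, fell with the members, with log2 changes in mRNA of -2.40 ± 0.17 in E85Q, -4.25 ± 0.17 in D87E and -4.65 ± 0.17 in WT. STM1, whose protein binds idle ribosomes, fell too, with changes of -1.68 ± 0.20 in E85Q, -3.21 ± 0.20 in D87E and -3.57 ± 0.20 in WT. The assembly factor gene LTV1 fell more in E85Q (-3.64 ± 0.12) than in WT (-2.54 ± 0.12), a difference of responses of -1.09 ± 0.17 that was called; no member had a called difference below 0 in mRNA. TSR2, which encodes the escort of Rps26, changed by -2.46 ± 0.16 in E85Q and -2.38 ± 0.16 in WT, a difference of -0.08 ± 0.22 that was not called (adjusted p = 0.758). YAR1 and TSR4, which encode chaperones of Rps3 and Rps2, fell by 1.03 to 1.55 in the 3 strains, and FAP7, which acts on Rps14, by 0.36 to 0.52. CRF1, known as a corepressor of ribosomal protein genes, rose by 3.54 ± 0.26 in E85Q, 5.53 ± 0.26 in D87E and 6.08 ± 0.26 in WT. Of the activators, FHL1 and SFP1 rose in D87E (0.67 and 0.48) and WT (0.66 and 0.48) and were not called in E85Q (0.05 and 0.10). IFH1 fell in all 3, most in E85Q (-0.85 ± 0.07, against -0.20 ± 0.07 in WT), RAP1 rose by 0.23 to 0.28, and HMO1 fell by 0.38 to 0.67. In TE as deposited, FHL1 and SFP1 were lower in D87E (-0.59 and -0.48) and WT (-0.34 and -0.31). IFH1 was higher in TE in WT (0.23), RAP1 lower in D87E (-0.23), and HMO1 higher in D87E and WT (0.48 and 0.40). In E85Q no TE change of FHL1, SFP1, IFH1, RAP1 or HMO1 was called. CRF1 was lower in TE in all 3 strains, at -0.71 ± 0.11 in E85Q, -1.29 ± 0.11 in D87E and -1.53 ± 0.11 in WT. With methionine its mRNA was 1.02 to 2.14 RPKM in the 6 samples, near the pseudocount of 1, so the size of its changes depends on that setting.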

How the data were processed

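RNA-seq and ribosome profiling were measured in 24 libraries. The deposited values are RPKM that the authors computed per library, with footprints of 18 to 34 nt and masked positions; the masked positions and the reads behind the scaling are not given in the sources used here. The tools listed, without a role, per the submitters' processing notes are TopHat2 2.1.1 and Bowtie 1.1.2, with sacCer3 as the build. Per the labels, RNA-seq libraries were stranded and rRNA-depleted, and footprint libraries were pooled after ligation where possible.

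Values were used as log2(RPKM + 1), which understates changes of low genes. The 4888 genes that averaged 5 RPKM or more in both assays were fitted with limma 3.58.1 in R 4.3.3 (group means, intensity trend, two-sided); the other steps ran in Python 3.11.15. Read numbers and counted positions assume 33 bases left out of each gene, a fitted value. The recovery of read numbers and the limma fit were tested on simulated data, and the other steps were not. Paralog shares and subunit shares were tested with exact sign flips over 6 isolates. Same-numbered samples come from the same strain, per the labels, so the isolate pairs them; their deviations correlated between media at -0.183 to 0.409. Members, gene lists and tests were chosen with earlier results of these data known. Genes were named by rule: those without a paralog, 8 genes near the mRNA exit, the extremes of each starvation comparison, up to 3 called members a direction elsewhere, and the pairs with the largest and smallest share changes; the genes RPS27A and RPS27B and the pairs RPS1, RPS10 and RPS26 were added after their values were seen. Some extremes picked by the rule are not given in the text, such as those of RPS4A, RPS17B and RPS30B in E85Q TE. Alternatives changed the pseudocount, filter, scaling, trend, groups fitted, isolate block and samples. 1 member is counted but its own values are not reported here. Coordinates are of R64 (sacCer3). Sequences were not used here.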

Additional observations from a re-analysis of the deposited data

Results flagged for a closer look

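The starvation responses of E85Q and WT differed, by the limma test of the difference, for 42 members in mRNA (all of them higher), 33 in footprints and 16 in TE. Of all 4888 tested genes, 579 (11.8%) were higher and 2375 lower in mRNA. Of the 68 60S genes, 62 were higher in mRNA. In footprints 13.8% of all tested genes were higher and 27.7% lower, and in TE 17.4% were higher and 4.44% lower. Without single samples the members' counts were 40 to 44 in mRNA, 16 to 42 in footprints and 5 to 27 in TE. The members that stood out in E85Q minus WT were RPS3 (2.51), RPS31 (2.46) and RPS13 (2.45) in mRNA. In footprints they were RPS2 (2.59), RPS20 (2.55), RPS31 (2.44) and, in the other direction, RPS27A (-1.02). In TE they were RPS27B (-1.57), RPS26B (-1.27) and RPS26A (-1.03), and RPS20 with the opposite sign (0.84).

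In 3 further results every isolate of E85Q moved one way and every WT isolate the other, and the difference was not tested. The 40S share of cytosolic ribosomal protein mRNA rose by a mean of 1.53 points in E85Q while it was lower in both WT and both D87E isolates. The RPS21A share of RPS21 mRNA changed by -2.29 points in E85Q, against 8.52 in WT. The RPS4A share of RPS4 footprints changed by 3.33 points in E85Q, against -13.1 in WT, over 10 counted positions a gene.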

How the results depend on the processing

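All 49 falls in mRNA and footprints kept their calls in 3 strains under every alternative fitted to all members, except that E85Q mRNA gave 48 without isolate 625 starved or isolate 623 with methionine. Restricted to the 20 members with 100 or more counted positions, an alternative chosen after seeing the data, 20 fell in mRNA and 20 in footprints in each strain, and TE changed in 0, 7 and 12 in E85Q, D87E and WT. The same restriction gave 19, 18 and 15 members that differed between starved E85Q and WT in mRNA, footprints and TE, 19, 16 and 10 in the difference of responses, and 0 in mRNA with methionine. Subtracting the bound on carry-over, also chosen after seeing the data, gave 6 TE calls in E85Q, 13 in WT, 14 for starved E85Q against WT and 8 in the response. It reversed the WT TE changes of RPS12 (-0.12), RPS13 (-0.24) and RPS31 (-0.85); the cause was not tested further. For mRNA of E85Q against WT with methionine, calls numbered 1 with no filter, 0 with centring on the median gene, and 8 when only the groups compared were fitted, which also gave 1 footprint call. For starvation TE in E85Q, calls numbered 3 with a pseudocount of 10, 2 with rescaling to genes outside the ribosomal proteins, 0 with no filter, 0 with only the groups compared, and 2 with the isolate as a replicate block, which moved no other count by over 1.5 times. Centring gave 26 TE calls in D87E and 35 in WT, only the groups compared gave 21 in D87E, and no filter gave 17 footprint calls in the E85Q response. The 40S minus 60S median in mRNA was 0.24, opposite in sign to the share.

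Leaving out each sample in turn gave 0 to 4 mRNA calls and 0 to 1 footprint calls for E85Q against WT with methionine. Starved D87E against WT gave 0 to 22 in mRNA, 0 to 4 in footprints and 0 to 9 in TE, and its response 0 to 1, 0 to 1 and 0 to 6. The E85Q response gave 16 to 42 in footprints and 5 to 27 in TE, and starved E85Q against WT 11 to 32 in TE. Starvation TE calls were 0 to 1 in E85Q, 8 to 18 in D87E and 15 to 32 in WT. The change of the 40S footprint share was 3.77 to 4.498 points, each with an exact p of 0.0625, the smallest that 5 isolates allow. The comparison limited to pairs by the share of unique coding windows was not run. Members with 10 to 39 counted positions are the least precise.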
